A study of Mus musculus with 15 samples.

Results

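The genes of 5 receptors of the tumour necrosis factor (TNF) family that regulatory T cells (Treg) carry were followed across 4 mouse genotypes. They were Tnfrsf18 (GITR), Tnfrsf4 (OX40), Tnfrsf9 (4-1BB), Tnfrsf1b (TNFR2) and Cd27, taken by name from 19752 genes, each read by the 1 array feature (transcript cluster) annotated to that gene alone. All 5 were measured, and none was removed for a low value. Splenic Treg of 6-week-old males were sorted as CD3, TCRbeta, CD4 and Foxp3-GFP positive cells that lacked CD8, B220, CD11b, CD11c and Gr1. Cells of several mice were combined for sorting, and the RNA of 40000 to 50000 of them was amplified for each of 15 Affymetrix Mouse Gene 1.0 ST arrays. The values are intensities on a linear scale, and the number of arrays limits their precision.

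All groups carried the Foxp3EGFPCre allele, which drives Cre and green fluorescent protein in Foxp3-expressing cells. The group called N1c_RBPJdel (Foxp3EGFPCreR26N1c/N1cRBPJ∆/∆, 3 arrays) had both the R26N1c allele and the deletion of RBPJ. The N1c group (Foxp3EGFPCreR26N1c/N1c, 4 arrays) had R26N1c, an allele that makes the active intracellular fragment of Notch1 once Cre has acted. The RBPJdel group (Foxp3EGFPCreRBPJ∆/∆, 4 arrays) lacked RBPJ, which carries the Notch1 fragment to its target genes on DNA. The control group (Foxp3EGFPCre, 4 arrays) had the Cre allele alone. A FACSAria was used for N1c_RBPJdel cells and a MoFlo for the rest, so sorter and genotype cannot be told apart for that group. In these bulk samples, fewer cells of a type and less RNA per cell cannot be told apart either.

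GITR, OX40, 4-1BB, TNFR2 and CD27 are co-stimulatory receptors that bind ligands of the TNF family on other cells. They have no enzymatic activity and signal through TRAF adaptor proteins, which lead to NF-kB. Treg carry several of them at high level, GITR and OX40 among the classic Treg surface markers, and TNFR2 is known for its part in Treg expansion.

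Tnfrsf18 and Tnfrsf4 lie side by side on mouse chromosome 4, with 0 protein-coding genes between them. Tnfrsf9 and Tnfrsf1b lie elsewhere on chromosome 4, and Cd27 lies on chromosome 6. RefSeq promoter windows of GRCm38.p6, from 250 bases before to 50 bases after the annotated start, were found for 5 of the 5 genes, in 6 windows of 300 bases. The windows of the neighbours Tnfrsf18 and Tnfrsf4 are shown because these genes moved together. The window of the second start of Tnfrsf9 is shown because it holds the matches described after it. All 3 read 5′ to 3′ on the plus strand, and capitals mark motif letters.
Tnfrsf18, chr4:156026072-156026371: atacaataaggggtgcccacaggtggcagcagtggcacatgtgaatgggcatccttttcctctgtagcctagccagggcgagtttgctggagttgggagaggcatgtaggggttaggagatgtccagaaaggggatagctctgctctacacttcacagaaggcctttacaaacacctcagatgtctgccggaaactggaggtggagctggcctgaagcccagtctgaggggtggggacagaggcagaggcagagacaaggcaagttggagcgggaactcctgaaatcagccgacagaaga
Tnfrsf4, chr4:156013445-156013744: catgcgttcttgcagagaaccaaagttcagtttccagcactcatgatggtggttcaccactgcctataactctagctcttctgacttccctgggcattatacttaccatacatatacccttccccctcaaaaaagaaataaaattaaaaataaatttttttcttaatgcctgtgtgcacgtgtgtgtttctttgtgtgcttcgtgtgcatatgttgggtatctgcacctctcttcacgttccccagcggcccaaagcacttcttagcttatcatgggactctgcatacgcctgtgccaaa
Tnfrsf9 start 2, chr4:150927749-150928048: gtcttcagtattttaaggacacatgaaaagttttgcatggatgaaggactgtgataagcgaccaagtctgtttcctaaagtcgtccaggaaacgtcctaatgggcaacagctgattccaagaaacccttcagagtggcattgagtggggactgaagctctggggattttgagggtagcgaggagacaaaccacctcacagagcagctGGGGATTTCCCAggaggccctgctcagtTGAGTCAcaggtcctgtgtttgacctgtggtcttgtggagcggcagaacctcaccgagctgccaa

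Both strands were searched for 4 motifs, chosen with earlier results known. These were the RBPJ core TGGGAA, an NF-kB motif (GGG and TTTCC with any 2 bases between), an AP-1 motif TGANTCA and a GC box GGGCGG. They occurred in 25.6%, 1.63%, 7.81% and 35.7% of 32851 promoter windows of the same length. The windows of Tnfrsf18, Tnfrsf4 and Cd27 held no match to any of them. The second Tnfrsf9 window held an NF-kB match from base 208 and an RBPJ core match on the minus strand from base 214, which overlap, and an AP-1 match from base 236. The first Tnfrsf9 window held 1 GC box and the Tnfrsf1b window 2. A match describes letters in a window and not a binding site.

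Rbpj checked the labels. Its mean intensity was 209 in N1c_RBPJdel, 521 in N1c, 267 in RBPJdel and 497 in control arrays, so it was lower in both groups labelled as deleted. Group means of intensity are geometric means throughout. Notch1 did not mark the R26N1c allele, with means of 1008 in N1c_RBPJdel, 1252 in N1c, 1326 in RBPJdel and 1227 in control arrays, and a log2 difference of 0.03 ± 0.18 in N1c against control (limma adjusted p = 1). Dtx1, a target gene of Notch signalling looked at outside the naming rule, was higher in N1c than in control by 1.47 ± 0.21 (log2, SE; adjusted p = 0.000471) and lower in RBPJdel than in control (-2.12). In N1c_RBPJdel its mean intensity was 797, with arrays from 630 to 1276, against 378 in RBPJdel arrays. Foxp3, the transcription factor that defines Treg, had mean intensities of 4220 in N1c_RBPJdel, 4342 in N1c, 5333 in RBPJdel and 4980 in control arrays. None of the 8 Treg markers passed the test in N1c against control, or in N1c_RBPJdel against N1c or control. Of all genes, 1.65%, 9.23% and 8.9% passed in these comparisons. Some transcripts of other cell types were higher in N1c_RBPJdel. The summed intensity of 6 measured B cell markers ran from 631 to 938 in N1c_RBPJdel, 506 to 556 in N1c, 634 to 746 in RBPJdel and 552 to 631 in control arrays. The sum of 10 myeloid markers ran from 576 to 722, 473 to 560, 496 to 575 and 482 to 533 in the same groups. The sum of 4 measured erythroid markers ran from 311 to 1073 in N1c_RBPJdel and 200 to 246 over the N1c, RBPJdel and control arrays. Car1 had a mean of 360 in N1c_RBPJdel arrays, which ran from 137 to 852. No marker was listed at 0. In N1c_RBPJdel against N1c, 3 of 6 B cell, 2 of 10 myeloid and 1 of 4 erythroid markers were higher and none lower, while 0 of 6 markers of natural killer cells passed. The share of all genes that were higher in this comparison was 4.58%. Of 6 markers of conventional T cells, Il7r was higher and Satb1 lower. The part of these cells in the results that follow was not tested.

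**Figure D1:**
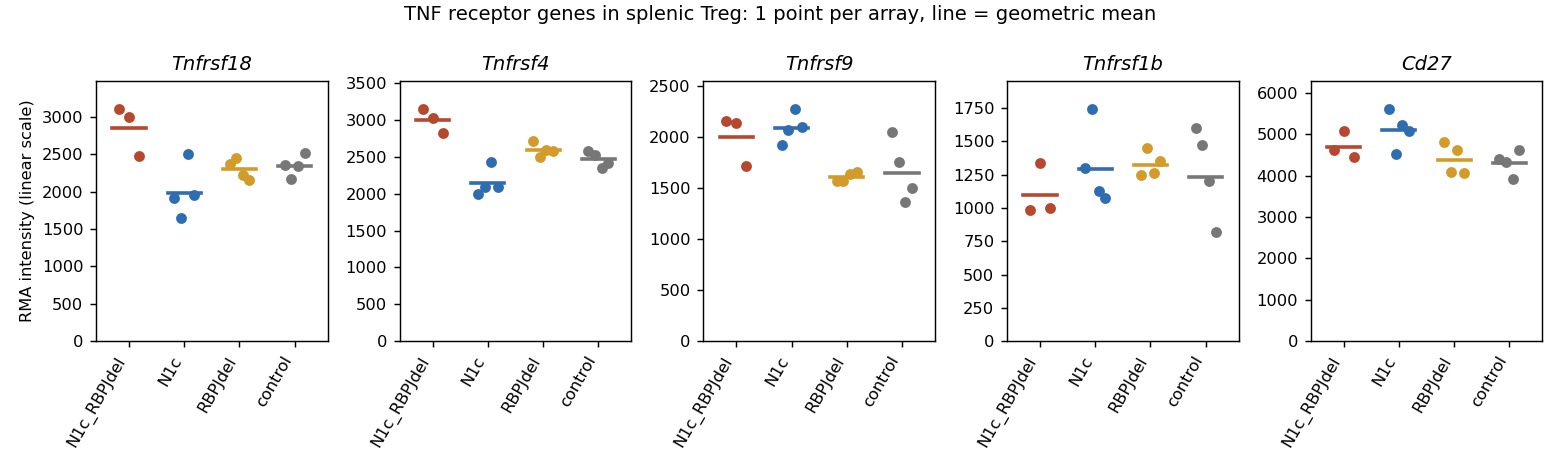
Intensity (linear scale, axes from 0) of the 5 receptor genes on each of 15 arrays, by genotype, with a line at the geometric mean of each group. Tnfrsf18 and Tnfrsf4 are highest in N1c_RBPJdel and lowest in N1c, Tnfrsf9 and Cd27 are highest in N1c, and Tnfrsf1b spreads widely within groups.

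Tnfrsf4 encodes OX40, which is induced on activated T cells and constitutively carried by Treg. Its intensities were 3154, 3036 and 2833 in N1c_RBPJdel arrays, against 2004, 2099, 2426 and 2097 in N1c arrays. RBPJdel arrays had 2718, 2498, 2594 and 2587, and control arrays 2579.9, 2527, 2354 and 2423. All N1c_RBPJdel arrays lay above every array of the other groups, and all RBPJdel arrays lay above all N1c arrays. Tnfrsf4 was the steadiest member: its SD within groups was 0.0818 on the log2 scale, lower than that of all but 2.1% of genes.

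Tnfrsf18 encodes GITR, whose engagement co-stimulates T cells. Its intensities were 3108, 3005 and 2477 in N1c_RBPJdel arrays, against 1917, 1649, 2503 and 1962 in N1c arrays. RBPJdel arrays had 2373, 2450.1, 2226 and 2151, and control arrays 2358, 2164, 2338 and 2515. One N1c array, replicate 4, was above the lowest N1c_RBPJdel array, so these groups overlapped. The other 3 N1c arrays were the 3 lowest of all 15.

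The comparison of N1c_RBPJdel with N1c asks what loss of RBPJ does in Treg with active Notch1. Tnfrsf4 and Tnfrsf18 were higher in N1c_RBPJdel and the other 3 members did not pass the test. By limma, Tnfrsf4 differed by 0.48 ± 0.09 (log2, SE; 95% interval 0.29 to 0.67), a ratio of 1.40, with an adjusted p of 0.00357 and arrays that did not overlap. Tnfrsf18 differed by 0.52 ± 0.13 (log2, SE; 0.26 to 0.79), a ratio of 1.44, with an adjusted p of 0.0159. A gene counted as changed at a two-sided p under 0.05 after Benjamini-Hochberg adjustment over 19752 genes. The share of all genes that were higher by this rule was 4.58%, and 9.23% changed in either direction. At an unadjusted p under 0.05 there were 2 of 5 members and 26.5% of genes. Arrays did not overlap for 1 of the 5 members, Tnfrsf4, and for 16.4% of all genes.

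The Tnfrsf18 call depended on single arrays. Its adjusted p was 0.075 without N1c_RBPJdel replicate 1 (log2 difference 0.46) and 0.0561 without N1c replicate 2 (0.43). The Tnfrsf4 call held in all 15 fits that left out 1 array, with adjusted p-values from 0.00263 to 0.0198. With N1c_RBPJdel replicate 2, the array of widest spread in its group, as the only array of that group, the differences were 0.50 for Tnfrsf4 (adjusted p = 0.0378) and 0.60 for Tnfrsf18 (adjusted p = 0.0679). In that fit, added after the values were seen, the spread comes from the other groups and the lone array is assumed to vary like them. With only the arrays of both groups in the fit, neither passed: adjusted p was 0.0579 for Tnfrsf4 and 0.102 for Tnfrsf18.

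Tnfrsf9 encodes 4-1BB, an activation-induced receptor of T cells. Its intensities were 2163, 2144 and 1723 in N1c_RBPJdel arrays, against 1927, 2075, 2278 and 2102 in N1c arrays. RBPJdel arrays had 1571, 1566, 1640.5 and 1657, and control arrays 2051, 1758, 1368 and 1503. Every N1c_RBPJdel and every N1c array was above every RBPJdel array, while control arrays ranged across the others. Tnfrsf9 differed by -0.07 ± 0.13 (log2, SE) between N1c_RBPJdel and N1c, with an adjusted p of 0.785.

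Cd27, whose protein binds CD70, had intensities of 4606, 5075 and 4445 in N1c_RBPJdel arrays, against 5611, 4532, 5221 and 5075 in N1c arrays. RBPJdel arrays had 4812, 4079.8, 4611 and 4052, and control arrays 4391, 4335, 3914 and 4606. The groups overlapped in every comparison. The difference between N1c_RBPJdel and N1c was -0.12 ± 0.10 (log2, SE; adjusted p = 0.509).

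Tnfrsf1b, the gene of the TNF receptor TNFR2, had intensities of 987, 1340.5 and 996 in N1c_RBPJdel arrays, against 1303, 1743, 1127 and 1077 in N1c arrays. RBPJdel arrays had 1249, 1452, 1259 and 1349, and control arrays 1602, 1472, 1204 and 815. The highest and the lowest of the 15 arrays were an N1c and a control array, so the spread within groups covered the differences between them. Its SD within groups was 0.304 on the log2 scale, above that of 93.9% of genes. The difference between N1c_RBPJdel and N1c was -0.23 ± 0.20 (log2, SE; adjusted p = 0.497).

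**Figure D2:**
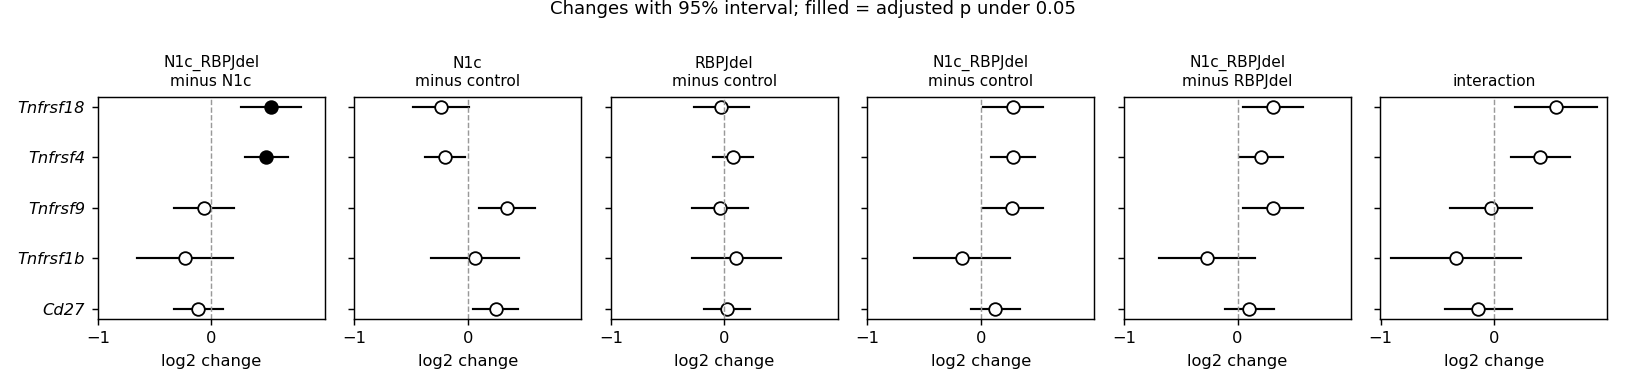
Log2 changes of the 5 members in 6 comparisons, with the 95% interval as a line and a filled point where the adjusted p is under 0.05. Only Tnfrsf18 and Tnfrsf4 in N1c_RBPJdel minus N1c are filled, and the Tnfrsf1b intervals are the widest.

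The comparison of N1c with control asks what active Notch1 does in Treg with intact RBPJ. None of the 5 members passed, against 1.65% of all genes, and at an unadjusted p under 0.05 the counts were 3 of 5 members and 8.21% of genes. The differences were -0.24 ± 0.12 for Tnfrsf18 (adjusted p = 0.637), -0.20 ± 0.08 for Tnfrsf4 (0.46) and 0.34 ± 0.12 for Tnfrsf9 (0.247), in log2 with SE. Cd27 differed by 0.24 ± 0.10 (adjusted p = 0.387) and Tnfrsf1b by 0.06 ± 0.19 (adjusted p = 1). No member had arrays that did not overlap, against 5.73% of genes.

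For RBPJdel against control, which asks what loss of RBPJ alone does, 0 of 5 members passed in the limma fit and 0 of 5 had an unadjusted p under 0.05. The shares of all genes were 0.111% and 6.74%. Arrays did not overlap for 0 of 5 members and 5.89% of genes. The differences ranged from -0.04 for Tnfrsf9 to 0.10 for Tnfrsf1b on the log2 scale. The interval for Tnfrsf4 ran from -0.10 to 0.25 and that for Tnfrsf18 from -0.27 to 0.22, so moderate changes of either sign cannot be told from 0.

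Against control, N1c_RBPJdel showed 0 of 5 members past the limma threshold (8.9% of genes) and 3 of 5 at an unadjusted p under 0.05 (26.4% of genes). Tnfrsf4 was nearest, at 0.28 ± 0.09 (log2, SE; adjusted p = 0.0585), with arrays that did not overlap, as was the case for 18.7% of genes. Tnfrsf18 and Tnfrsf9 each differed by 0.28, with adjusted p-values of 0.158 and 0.172. Tnfrsf4 passed under quantile normalization (0.41, adjusted p = 0.0122) and with a pseudocount of 16 (0.28, adjusted p = 0.0323).

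Against RBPJdel, which asks what active Notch1 does when RBPJ is absent, N1c_RBPJdel also showed 0 of 5 members past the limma threshold (2.29% of genes). The sorter differs between these groups too, so sorter and genotype cannot be told apart here. At an unadjusted p under 0.05 there were 3 of 5 members and 21.2% of genes. Arrays did not overlap for Tnfrsf18, Tnfrsf4 and Tnfrsf9, 3 of 5 members against 15.8% of genes. Their differences were 0.31, 0.21 and 0.31 on the log2 scale, with adjusted p-values of 0.164, 0.192 and 0.164. Tnfrsf4 passed under quantile normalization (0.35, adjusted p = 0.0398).

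The interaction is the difference of N1c_RBPJdel from RBPJdel minus the difference of N1c from control. It asks whether active Notch1 acts differently without RBPJ, and the sorter of N1c_RBPJdel cannot be told apart from genotype in it. No member passed in the limma fit (0 of 5, against 0.84% of genes), and at an unadjusted p under 0.05 there were 2 of 5 members and 12.9% of genes. Tnfrsf18 gave 0.55 ± 0.17 (log2, SE; adjusted p = 0.161) and Tnfrsf4 0.41 ± 0.12 (adjusted p = 0.15), so a difference between the N1c effects with and without RBPJ was not shown for them. Under quantile normalization Tnfrsf4 passed (0.57, adjusted p = 0.0214). Tnfrsf9, Tnfrsf1b and Cd27 gave -0.03, -0.34 and -0.14.

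A comparison of N1c with RBPJdel was added after the values were seen. The limma fit called 0 of 5 members (2.5% of genes), with 3 of 5 members and 11% of genes at an unadjusted p under 0.05. Arrays of Tnfrsf4 and Tnfrsf9 did not overlap, as for 8.22% of genes. Tnfrsf4 was at -0.27 ± 0.08 (log2, SE; adjusted p = 0.123) and Tnfrsf9 at 0.38 ± 0.12 (adjusted p = 0.124). These comparisons share arrays, so their values are not independent of each other.

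Within each gene, the order of the group means had N1c_RBPJdel first for Tnfrsf18 (2849.5) and Tnfrsf4 (3005) and N1c last (1985 and 2151). RBPJdel and control lay between, at 2297 and 2340.4 for Tnfrsf18 and 2598 and 2470 for Tnfrsf4. For Tnfrsf9 and Cd27, N1c had the highest mean (2092 and 5095), followed by N1c_RBPJdel (1999 and 4701). RBPJdel and control were at 1608 and 1650 for Tnfrsf9 and at 4376 and 4304 for Cd27. For Tnfrsf1b N1c_RBPJdel was lowest at 1096.5, with 1288 in N1c, 1324.5 in RBPJdel and 1234 in control arrays. No pair of neighbours in these orders passed the test.

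The ligands were read in the same cells. GITR ligand, encoded by Tnfsf18, was dim, with intensities of 47.2, 46 and 49.8 in N1c_RBPJdel arrays against 27.9, 35.8, 32.7 and 32.1 in N1c arrays. RBPJdel arrays had 35, 34.3, 33.4 and 28.2, and control arrays 34.8, 34.3, 38.1 and 42.9. The N1c_RBPJdel arrays lay above all others. Tnfsf18 was higher in N1c_RBPJdel than in N1c by 0.58 ± 0.11 (log2, SE; limma adjusted p = 0.00468) and than in RBPJdel by 0.55 (adjusted p = 0.0231). Its interaction was 0.77 (adjusted p = 0.0204), a call lost with array weights (adjusted p = 0.051) and without N1c 5 and control 5 (0.0553). The call against RBPJdel was lost without N1c_RBPJdel replicate 1 (adjusted p = 0.0729), without RBPJdel replicate 3 (0.0598), with array weights (0.0514) and with those groups alone (0.0612). With N1c_RBPJdel replicate 2 as the lone array of its group, the differences were 0.53 against N1c, 0.50 against RBPJdel and 0.72 for the interaction, and none passed (adjusted p = 0.0878, 0.145 and 0.121).

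No other ligand of the 5 receptors passed in N1c_RBPJdel against N1c. Tnfsf4, the OX40 ligand, differed by 0.17 ± 0.15, and Tnfsf9, the 4-1BB ligand, by 0.34 ± 0.33. Tnf and Lta, both ligands of TNFR2, differed by -0.49 ± 0.21 and 0.16 ± 0.14, and Cd70, the CD27 ligand, by 0.22 ± 0.11 (log2, SE). In Treg these transcripts are read in the receptor-bearing cells and not in the cells that present the ligands. Tnfsf4, Tnfsf9 and Cd70 had means of 31.7, 90.4 and 55.1 in N1c_RBPJdel and 28.3, 71.4 and 47.3 in N1c arrays. All were below the array medians of 107.1 to 117.2.

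Among all 18 ligands of the family, 16 were measured. In N1c against control, where 1.65% of all genes changed, Fasl, the death ligand of Fas, rose and Tnfsf10 (TRAIL) fell, and 14 did not pass. Fasl intensities were 264, 212, 334 and 248 in N1c arrays, against 75.7, 76.9, 112 and 106 in control arrays. The groups stood apart, and the difference was 1.52 ± 0.16 (log2, SE; limma adjusted p = 1.38e-05). In N1c_RBPJdel arrays Fasl had 106, 80.1 and 108, against the N1c values given above, a difference of -1.43 ± 0.17 (adjusted p = 5.04e-05). Its interaction was -1.25 ± 0.23 (adjusted p = 0.0122).

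Tnfsf10 had intensities of 726, 709.99 and 613 in N1c_RBPJdel arrays, against 401, 373, 364 and 287 in N1c arrays, and 679, 688, 493 and 443 in control arrays. The N1c arrays were all below the others. It differed by -0.68 ± 0.14 in N1c against control (log2, SE; adjusted p = 0.0177) and by 0.95 ± 0.16 in N1c_RBPJdel against N1c (adjusted p = 0.00123). The first of these calls was lost without N1c replicate 5 (limma adjusted p = 0.0711), control replicate 2 (0.0841) or control replicate 3 (0.0837). It was also lost with only the N1c and control arrays in the fit (0.0832). In N1c_RBPJdel against N1c, 2 ligands rose (Tnfsf10 and Tnfsf18), 2 fell (Fasl and Tnfsf8) and 12 did not pass, while 9.23% of all genes changed. The median log2 change of the ligands was 0.20 beside 0.02 over all genes. Tnfsf8, the CD30 ligand, differed by -0.90 ± 0.24 (adjusted p = 0.0276), which was lost without N1c_RBPJdel replicate 2 or 3 or N1c replicate 1 or 2 (adjusted p up to 0.0889).

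**Figure D3:**
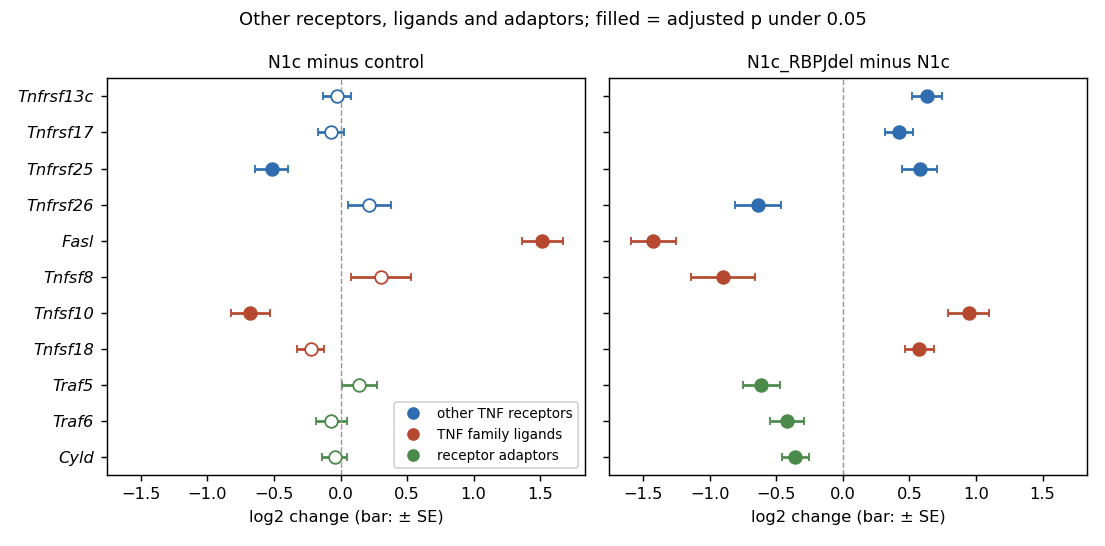
Log2 changes with SE of the other receptors, ligands and adaptors that passed in N1c minus control or in N1c_RBPJdel minus N1c, filled where the adjusted p is under 0.05. Fasl is highest in N1c minus control (1.52) and lowest in N1c_RBPJdel minus N1c (-1.43).

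Of 23 other receptors of the family, all measured, 1 fell in N1c against control and 3 rose and 1 fell in N1c_RBPJdel against N1c. The shares of all genes that changed were 1.65% and 9.23%. The medians were 0.02 and -0.05 on the log2 scale, beside -0.01 and 0.02 over all genes. Tnfrsf25, the death receptor DR3 that co-stimulates Treg, had intensities of 682, 843 and 614 in N1c_RBPJdel arrays, against 496, 519, 503 and 390.0 in N1c arrays. RBPJdel arrays had 647, 748, 643 and 683, and control arrays 747, 652, 762 and 571. The N1c arrays were below all others. The difference was 0.58 ± 0.13 in N1c_RBPJdel against N1c (log2, SE; adjusted p = 0.0133), and this call held in all 15 fits that left out 1 array. In N1c against control it was -0.52 ± 0.12 (adjusted p = 0.0411), a call lost in 12 of the 15 such fits, with adjusted p up to 0.164 (without control replicate 4).

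Tnfrsf13c, the B cell survival receptor BAFF-R, had intensities of 361, 365 and 322 in N1c_RBPJdel arrays, against 204, 209, 244 and 250.1 in N1c arrays. The groups stood apart, by 0.63 ± 0.11 (log2, SE; adjusted p = 0.00244). Tnfrsf13c is also a B cell transcript, and Cd79a, Ms4a1 and Ebf1 of the B cell markers were likewise higher in this comparison, Cd79a at a mean of 58.6 in N1c_RBPJdel and 28.2 in N1c arrays. Tnfrsf17, the plasma cell receptor BCMA, was dim, with means of 66.8 in N1c_RBPJdel and 49.8 in N1c arrays, below the array medians of 107.1 to 117.2. Tnfrsf17 differed by 0.42 ± 0.11 (log2, SE; limma adjusted p = 0.0187), lost without N1c_RBPJdel replicate 1 (0.0932) or N1c replicate 1 (0.0528). Tnfrsf26 differed by -0.64 ± 0.17 (adjusted p = 0.0292), lost in 5 of 15 fits that left out 1 array, up to 0.125 without N1c_RBPJdel replicate 3. The part of B cell RNA in these values was not tested.

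Adaptors carry the signal from the receptor tails. Of 20 in the list, 18 were measured. In N1c against control 0 passed the threshold (1 at an unadjusted p under 0.05, limma), against 1.65% of all genes (8.21% unadjusted). In N1c_RBPJdel against N1c 3 were lower, and 9.23% of all genes changed. The median was -0.19 on the log2 scale in the second comparison, beside 0.02 over all genes. Traf5, an adaptor of OX40, CD27 and GITR, had intensities of 308, 483 and 389 in N1c_RBPJdel arrays, against 544, 708, 637 and 502 in N1c arrays. The groups stood apart, by -0.61 ± 0.14 (log2, SE; adjusted p = 0.0117). Without N1c_RBPJdel replicate 1 the adjusted p was 0.0712, and with N1c_RBPJdel replicate 2 alone the difference was -0.29. Cyld, a deubiquitinase that restrains NF-kB, differed by -0.36 ± 0.10 (adjusted p = 0.0354), lost in 4 of 15 fits (up to 0.116 without N1c replicate 2). Traf6 differed by -0.42 ± 0.13 (adjusted p = 0.047), lost in 12 of 15 fits, up to 0.19 without N1c_RBPJdel replicate 3. Traf1, Traf2 and Siva1 differed by -0.27 ± 0.13, -0.0019 ± 0.16 and -0.14 ± 0.11, and none passed. With only the N1c_RBPJdel and N1c arrays in the fit, the calls of Tnfrsf25, Tnfrsf17, Tnfrsf26, Tnfsf8, Traf5, Cyld and Traf6 between these groups were lost. With the array spread as a covariate those of Tnfrsf17 (0.32), Tnfrsf26 (-0.34), Tnfsf8 (-0.56), Traf5 (-0.42), Cyld (-0.34) and Traf6 (-0.22) were lost too, and N1c_RBPJdel replicates 1 and 3 were the arrays of narrowest spread. Quantile normalization ended the calls of Tnfrsf26 (-0.52), Cyld (-0.23) and Traf6 (-0.29).

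Of 14 NF-kB factors and inhibitors, 12 were measured. The limma fit called 0 of them in N1c against control (1 at an unadjusted p under 0.05) and 0 in N1c_RBPJdel against N1c (1 at an unadjusted p under 0.05). The shares of all genes were 1.65% and 9.23%, and 8.21% and 26.5% unadjusted. Against control, where 8.9% of all genes changed, 1 was lower in N1c_RBPJdel, the kinase gene Ikbkb, by -0.32 ± 0.10 (limma adjusted p = 0.049). This call was lost in 10 of 15 fits that left out 1 array, up to 0.136 without control replicate 3.

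Across the 15 arrays Tnfrsf18 was most like Tnfrsf4 (Pearson r of log2 values 0.855, and 0.632 after the group means were removed), of 8612 genes with a mean log2 intensity of at least 7. Next came Klrg1, a receptor of effector Treg (0.839, and 0.824 within groups), and Adgrg1, an adhesion receptor of cytotoxic lymphocytes (0.83, and 0.629 within groups). Tnfrsf4 was most like Pglyrp1 (0.912), Susd3 (0.909) and Rln3 (0.907), whose r within groups was 0.478, 0.256 and 0.59. Between Tnfrsf4 and Tnfrsf9 r was 0.017 over the arrays and 0.712 within groups. These arrays share genotype groups and the processing, and the values are descriptions. In N1c_RBPJdel against N1c, Pglyrp1, Susd3 and Rln3 were higher by 1.34, 1.02 and 2.07 on the log2 scale. They were picked for following Tnfrsf4 over these same arrays, so the differences come with the choice and are no separate test.

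Tnfrsf9 was most like Pgam5 (0.839), Ssr2 (0.806) and Gngt2 (0.799), and Cd27 most like Abi2 (0.869), Ube2j1 (0.865) and Mtx2 (0.854). Between Tnfrsf9 and Cd27 themselves r was 0.613, and 0.217 within groups. Tnfrsf1b was most like Rnf41 (0.928), Ehmt2 (0.922) and G3bp1 (0.921), with r within groups of 0.932, 0.932 and 0.921. Its r with Notch1, a gene looked at after the values were seen, was 0.911. Notch1, Rnf41, Ehmt2 and G3bp1 had r of 0.653, 0.692, 0.736 and 0.666 with the spread of the array, which is described next. The part of the array spread in these likenesses was not tested.

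The spread of an array, the interquartile range of its log2 values, ran from 2.56 to 2.93 in N1c_RBPJdel, 2.69 to 3.06 in N1c, 2.75 to 2.94 in RBPJdel and 2.79 to 2.99 in control arrays. Tnfrsf1b followed it, with a Pearson r of 0.64 (permutation p = 0.0103, adjusted over the 5 members 0.0515) and a Spearman rho of 0.686 (permutation p = 0.00627, adjusted 0.0314). Without the 2 arrays farthest from the median spread, N1c_RBPJdel replicates 1 and 3, r was 0.505, and within groups it was 0.647. For Tnfrsf18 and Tnfrsf4 r was -0.442 and -0.461 (permutation p = 0.1 and 0.0845). Without those 2 arrays it was -0.198 and -0.097, and within groups -0.096 and 0.061. Spearman rho was -0.571 for Tnfrsf18 (permutation p = 0.029, adjusted 0.0725) and -0.446 for Tnfrsf4 (permutation p = 0.0974). Tnfrsf9 and Cd27 had r of 0.043 and 0.087. With the spread as a covariate, added after the values were seen, Tnfrsf1b differed by 0.09 between N1c_RBPJdel and N1c in place of -0.23. Tnfrsf4 kept its call (0.49, limma adjusted p = 0.00961) and Tnfrsf18 did not (0.50, adjusted p = 0.0562).

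**Figure D4:**
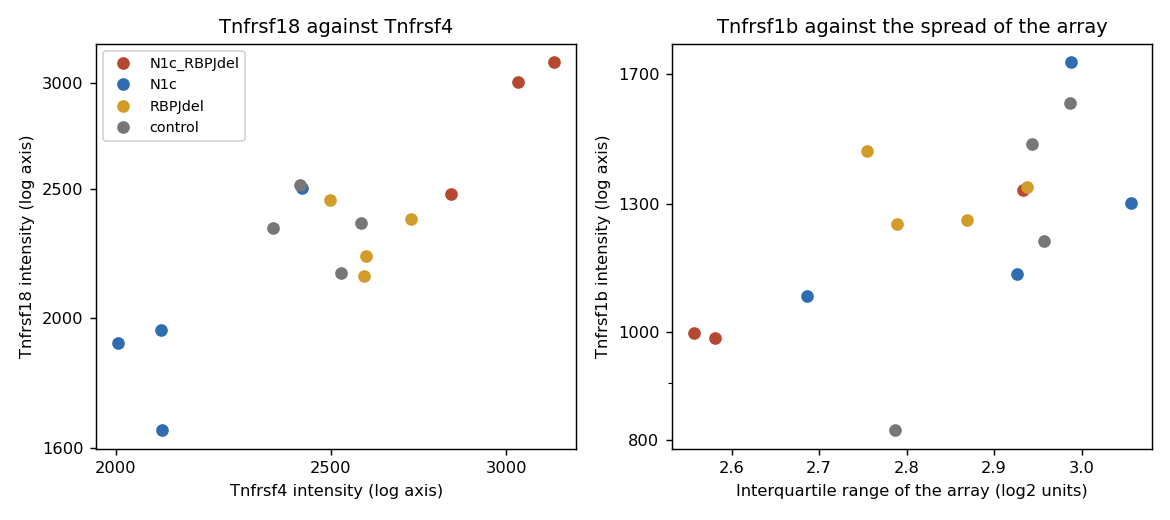
Left, Tnfrsf18 against Tnfrsf4 intensity, and right, Tnfrsf1b intensity against the interquartile range of the array, with 1 point per array coloured by group and log axes for intensity. Tnfrsf4 is highest on the N1c_RBPJdel arrays, and Tnfrsf18 on replicates 1 and 2 of that group. Replicate 3 of N1c_RBPJdel has Tnfrsf18 (2477) within the range of the other groups. Both genes are low on 3 of 4 N1c arrays (r = 0.855 between them), and Tnfrsf1b tends to rise with the spread (r = 0.64). Control replicate 5 has the lowest Tnfrsf1b (815) at a spread of 2.787, while RBPJdel replicate 2, at 2.755, has 1452.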

How the data were processed

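The deposited values are intensities per transcript cluster, which the authors made with Affymetrix Power Tools and RMA (named, per the submitters' processing notes, with no version). No source used here names the genome build. The values are linear, so they were converted to log2 here. Of 24922 features on 15 arrays, 21425 named 1 gene. Where a gene had several features, the one with the highest mean was kept, leaving 19752 genes with no filter. A model with 1 mean per group was fitted with limma 3.58.1 in R 4.3.3 (11 residual and 6.15 prior degrees of freedom), with p-values adjusted by Benjamini-Hochberg at a threshold of 0.05. These p-values reflect how arrays of pooled mice vary, which may be technical. Correlations used 100000 permutations. Python 3.11.15 and matplotlib 3.10.9 drew the figures.

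The members and lists, and the motifs, were chosen with earlier results of these data known. Named genes are the members, Rbpj, Notch1 and Foxp3, up to 4 genes per list and comparison past the threshold by smallest p, the members' ligands, Traf1, Traf2, Traf3, Traf5 and Siva1, and the 3 genes most like each member. Dtx1, Ccr8, Pdcd1, marker genes and the neighbours in the closing section are named outside this rule. Genes of the receptor, ligand, adaptor, NF-kB and effector Treg lists without a feature of their own were Tnfsf12, Tnfsf13, Traf3, Ripk1, Nfkb1, Chuk and Il1rl1. Residuals of arrays with the same replicate number had r of 0.417, 0.341 and 0.497 for N1c and control, and no other groups met the rule for pairing, r over 0.1 for every shared number. The main fit has no block, and the paired fit of N1c and control is an alternative. Alternatives comprised 28 settings, 15 of them leaving out 1 array.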

Additional observations from a re-analysis of the deposited data

How the results depend on the processing

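The members' results were recomputed under 28 settings, with 3 or 4 arrays per group. The causes of the changes that follow were not tested unless stated. In N1c_RBPJdel against N1c, fitting those groups alone, with fewer arrays, left 0 members past the threshold (Tnfrsf18 0.5216, Tnfrsf4 0.4823). With the array spread as a covariate Tnfrsf4 still passed (0.4904) and Tnfrsf18 did not (0.4963). With N1c_RBPJdel replicate 2 alone, with fewer arrays, the differences were 0.4971 for Tnfrsf4 and 0.5984 for Tnfrsf18. Quantile normalization brought Tnfrsf4 past the threshold, 1 member each, in N1c_RBPJdel against control (0.408) and against RBPJdel (0.3504) and in the interaction (0.5748), and the pseudocount of 16 did so against control (0.2813). In N1c against RBPJdel 1 member passed with array weights (Tnfrsf4, -0.2975) and 1 with those groups alone (Tnfrsf9, 0.3794).

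Changes of sign, all of values that did not pass, were as follows. With array weights, Tnfrsf1b was -0.0076 in N1c against control, -0.1417 in RBPJdel against control and 0.134 in N1c against RBPJdel, Tnfrsf18 was 0.003 in RBPJdel against control, and the Tnfrsf9 interaction was 0.0842. Without N1c 5 and control 5, the same 5 values were -0.0503, -0.0965, 0.0462, 0.0078 and 0.0189. Quantile normalization gave Cd27 -0.0708 in RBPJdel against control (arrays centred on their median, -0.0137) and 0.0029 in N1c_RBPJdel against N1c, Tnfrsf9 0.0499 in N1c_RBPJdel against N1c too, and interactions of 0.0881 for Tnfrsf9 and 0.0737 for Cd27. With the array spread as a covariate, Tnfrsf1b was 0.0857 against N1c and 0.1546 against control in N1c_RBPJdel, and Tnfrsf9 0.0025 against N1c, with an interaction of 0.015. With N1c_RBPJdel replicate 2 alone, Tnfrsf1b was 0.0573 against N1c, 0.12 against control and 0.0174 against RBPJdel, and Tnfrsf9 0.0356 against N1c, with an interaction of 0.0726.

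Leaving out 1 array at a time gave these ranges. In N1c against control Tnfrsf1b ran from -0.1364 to 0.1882. In RBPJdel against control Tnfrsf18 ran from -0.0645 to 0.0078, Tnfrsf9 from -0.1271 to 0.0677, Tnfrsf1b from -0.0965 to 0.2282 and Cd27 from -0.0217 to 0.061. In N1c_RBPJdel against N1c Tnfrsf18 ran from 0.4324 to 0.6331 and Tnfrsf9 from -0.1222 to 0.0419, with 1 to 2 members past the threshold. Tnfrsf1b ran from -0.3774 to -0.0872 in that comparison, from -0.3689 to -0.0443 in N1c_RBPJdel against control and from -0.48 to -0.136 in the interaction, and Tnfrsf18 from -0.3492 to -0.1485 in N1c against control, none past the threshold. The Tnfrsf9 interaction ran from -0.1331 to 0.0789 and Tnfrsf1b in N1c against RBPJdel from -0.1853 to 0.0462.

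The replicate block, fitted to all groups, gave Tnfrsf1b -0.4191 in N1c_RBPJdel against N1c (limma adjusted p = 0.0346, so 3 members passed), -0.0099 in RBPJdel against control and 0.0965 in N1c against RBPJdel. It changed no other call of a member. Pairing holds for N1c and control alone, where the blocked fit called no member.

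Counts over all genes moved by more than 1.5 times as follows. N1c against control gave 326 genes, 733 with array weights, 494 with the block and 217 without 1 array. RBPJdel against control gave 22, and 189 with array weights. N1c_RBPJdel against N1c gave 1823, 561 with those groups alone, 3699 with the block, 854 with N1c_RBPJdel replicate 2 alone, 2900 without N1c 5 and control 5, and 903 to 3058 without 1 array. N1c_RBPJdel against control gave 1757, 1141 with quantile normalization, 406 with those groups alone, 3767 with the block, 839 with the array spread, 732 with replicate 2 alone, 2785 without N1c 5 and control 5, and 530 to 3088 without 1 array. N1c_RBPJdel against RBPJdel gave 452, 202 without dim genes, 98 with those groups alone, 2107 with the block, 226 with replicate 2 alone, 1049 without N1c 5 and control 5, and 76 to 1890 without 1 array. The interaction gave 166, 257 with array weights, 632 with the block and 101 to 478 without 1 array. N1c against RBPJdel gave 494, 1017 with array weights and 807 with the array spread.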

Other observations

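Genes beside Tnfrsf4 and Tnfrsf18 on chromosome 4 were looked at after the values were seen. In N1c_RBPJdel against N1c, C1qtnf12 differed by 0.54 ± 0.17 (log2, SE; limma adjusted p = 0.0486), with means of 264 in N1c_RBPJdel and 182 in N1c arrays. B3galt6 and Sdf4 differed by -0.17 and 0.02, Ttll10, 9430015G10Rik and Rnf223 by 0.01, 0.06 and 0.25, and none of these 5 passed.

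Among 21 measured genes of effector Treg, 5 rose and 3 fell in N1c_RBPJdel against N1c, where 9.23% of all genes changed. Those that rose were Tigit (0.99 ± 0.14), Cxcr3 (1.03 ± 0.17), Klrg1 (0.99 ± 0.17), Ccr8 (0.96 ± 0.20) and Pdcd1 (0.87 ± 0.20), and those that fell were the integrin gene Itgae (-1.19 ± 0.15), Gzmb (-1.57 ± 0.27) and Il10 (-2.29 ± 0.42), in log2 with SE. With N1c_RBPJdel replicate 2 as the lone array of its group, where the other groups give the spread, Gzmb (-1.01) and Il10 (-1.69) did not pass (limma adjusted p = 0.157 each). In N1c against control, where 1.65% of all genes changed, 4 rose: Itgae (1.14), Gzmb (1.93), Il10 (2.41) and Ccr4 (0.74). Ccr4 did not pass without N1c 5 and control 5 (0.69, limma adjusted p = 0.0553).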
